A study of Brassica rapa subsp. pekinensis with 2 samples.

Results

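Of 41019 genes measured in flower buds of Chinese cabbage (Brassica rapa subsp. pekinensis), 6 genes for class III peroxidases are described here, which went in opposite directions between male sterile and male fertile plants. The plants belonged to AB02, an AB line, which is a population that segregates into sterile and fertile plants, and its male sterility is genic and controlled by multiple alleles. RNA was sequenced from 1 library of sterile buds and 1 library of fertile buds, both from vernalized seed grown in a greenhouse. The labels do not give bud stage or the number of plants in a library. With 1 library a group, no difference has a replicate check and no test of the conditions was possible.

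The 6 genes were those that the authors' deposited pathway table placed under phenylpropanoid biosynthesis with an Arabidopsis peroxidase code. Bra017761 was paired there with AT4G36430, Bra039920 with AT2G18150 and Bra029933 with AT3G49120, which carries the symbol PRXCB. Bra022090, Bra017514 and Bra024972 were all paired with AT5G47000 and are termed copies of it. No symbol given there calls any of them a peroxidase in words, so the family name rests here on the Arabidopsis codes. Any other description of these genes among the deposited data was not read. The members were thus selected on the difference between the same 2 libraries, since that table was built from genes the authors had called different. Their values are therefore given as a description. Other peroxidase genes of the genome were not found by name here, and the 6 are not the whole family.

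Class III peroxidases are heme enzymes of plants that are secreted to the cell wall and the vacuole. They use hydrogen peroxide to oxidise phenolic compounds, which couples monolignols into lignin and cross-links wall proteins, and they can also generate reactive oxygen species that loosen walls. Their place in phenylpropanoid biosynthesis is at the end, after the enzymes that make the monolignols. In anthers, phenolic compounds and reactive oxygen species take part in building the pollen wall and in the breakdown of the tapetum, the cell layer that feeds the pollen.

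Expression was given as RPKM, which scales reads to gene length and library total and allows levels to be compared between genes. Read totals recovered from these values were 1567647 for the sterile and 1803154 for the fertile library, assuming coding lengths in multiples of 3 bp. The summed RPKM of ribosomal RNA features was 831 in the sterile and 6708 in the fertile library, and its part in the peroxidase values was not tested. At least 1 read was found in 27279 genes in sterile buds and in 29071 genes in fertile buds. Ratios are given with a 95% Clopper-Pearson interval of the reads, which covers counting error only. A gene counted as higher or lower in sterile buds if the difference in log2(RPKM + 1) was 1 or more, a size threshold without a test. Among 27940 genes kept at RPKM of at least 1 in either library, 11.5% were higher and 14.5% were lower in sterile buds by this threshold. Of the 6 peroxidase genes 3 were higher and 3 were lower, a count fixed by how they were chosen. The authors' deposited table listed 0.379% of the kept genes as higher and 3.24% as lower in sterile buds, and by its construction all 6 members were in it. Their highest q-value in the authors' deposited table was 4.36e-06, for Bra039920, against 0.000999 as the highest q-value of any gene listed. The members were taken from this same list, so their q-values give no separate support. With 1 library a group, these q-values hold no spread between replicates.

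The most abundant of the 6 in sterile buds was Bra029933 (PRXCB), with 279 RPKM from 460 reads in sterile buds and 24.3 RPKM from 46 reads in fertile buds. In Arabidopsis, PRXCB is a cell wall peroxidase that contributes to the oxidative burst against pathogens. In sterile buds it was 11.5-fold higher (interval 8.48 to 15.9), or 3.47 higher on the log2(RPKM + 1) scale. Of the members higher in sterile buds it alone was also well detected in fertile buds, where its level exceeded that of 72.2% of the detected genes, against 97.3% in sterile buds. It ranked 747 among all genes in sterile buds. The authors' deposited table gave it a log2 fold change, fertile over sterile, of -3.28. In the authors' deposited table its q-value of 5.5e-56 was the smallest of the 106 genes listed as higher in sterile buds. That place follows the number of reads as well as the fold. By level it ranked 6 among those 106.

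The other 2 members that were higher in sterile buds rested on 1 read each in fertile buds. Bra017761 (AT4G36430) had 41.6 RPKM from 65 reads in sterile buds and 0.557 RPKM from 1 read in fertile buds. Its ratio was 74.8, with an interval from 13 to 2998, so the size of this difference is poorly determined. By the size of the fold it ranked 2 of the 106 genes higher in sterile buds in the authors' deposited table. Bra039920 (AT2G18150) had 24.6 RPKM from 39 reads in sterile buds and 0.549 RPKM from 1 read in fertile buds, a ratio of 44.9 (interval 7.59 to 1817). It ranked 10 of the 106 by fold in the authors' deposited table. The intervals of these ratios overlapped with each other and with that of PRXCB. Overlap alone does not show the ratios to be alike, and the 3 ratios were not compared directly, so no order is given. Their levels in sterile buds did differ beyond counting error. Per length, PRXCB was 6.71-fold above Bra017761 (interval 5.17 to 8.84) and 11.4-fold above Bra039920 (interval 8.18 to 16.2), and Bra017761 was 1.69-fold above Bra039920 (interval 1.12 to 2.58). In fertile buds the last 2 genes stood at 1 read each, and their order there could not be told.

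**Figure D1:**
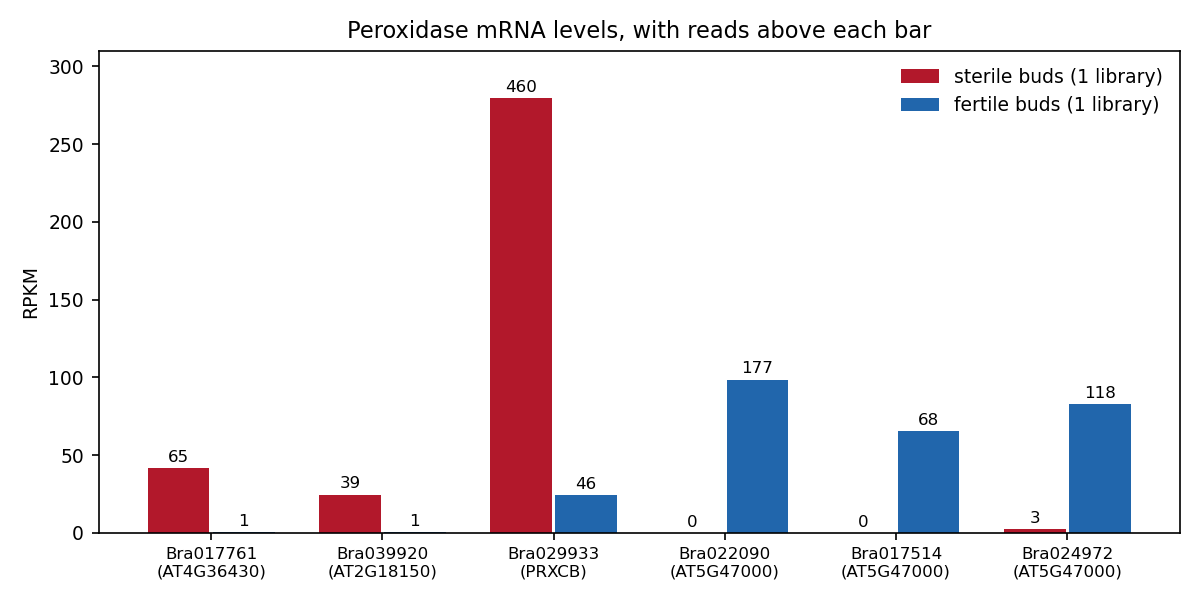
RPKM of the 6 peroxidase genes in the library of sterile buds (red) and the library of fertile buds (blue), with the number of reads above each bar. PRXCB stands at 279 RPKM in sterile buds, and the AT5G47000 copies lie between 65.1 and 98.6 RPKM in fertile buds and at or near 0 in sterile buds.

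The copies of AT5G47000 were lower in sterile buds. Bra022090 had 0 reads in sterile buds and 98.6 RPKM from 177 reads in fertile buds. This is 51.3 times the level of 3 reads in sterile buds, worth 1.92 RPKM for this gene. With counting error the fold could be as low as 41.3, where its interval began. Bra017514 also had 0 reads in sterile buds, against 65.1 RPKM from 68 reads in fertile buds. This is 19.7 times the level of 3 reads in sterile buds, and the counting interval of the fold began at 15.6. Bra024972 was the copy still seen in sterile buds, with 2.43 RPKM from 3 reads in sterile buds and 82.9 RPKM from 118 reads in fertile buds. It was 34.2-fold lower (interval 11.4 to 168). Those 3 reads lie at the floor used for the other copies, where 3 reads would be worth 1.92 RPKM for Bra022090 and 3.31 RPKM for Bra017514. The 3 copies could therefore not be told apart in sterile buds at this depth. The authors' deposited table gave Bra024972 a log2 fold change, fertile over sterile, of 5.34, and listed 906 genes as lower in sterile buds. The folds given there for the copies with 0 reads rest on a constant put in for 0 and are not repeated here.

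In fertile buds the copies were close to each other. Their levels exceeded those of 91.9% of the detected genes for Bra022090, 90.3% for Bra024972 and 87.8% for Bra017514. Per length, Bra022090 was 1.51-fold above Bra017514 (interval 1.14 to 2.03), which is beyond counting error. It was 1.19-fold above Bra024972 (interval 0.936 to 1.51), and Bra024972 was 1.27-fold above Bra017514 (interval 0.937 to 1.74), and neither of these differences was detectable at this depth. The gene lengths implied by reads and RPKM were 996 bp for Bra022090, 789 bp for Bra024972 and 579 bp for Bra017514. The members higher in sterile buds had implied lengths of 996, 1011 and 1050 bp. Reads from similar copies may have been split or shared between them, and the handling of reads with several matches is not stated in the labels or headers. The levels of single copies are therefore uncertain.

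**Figure D2:**
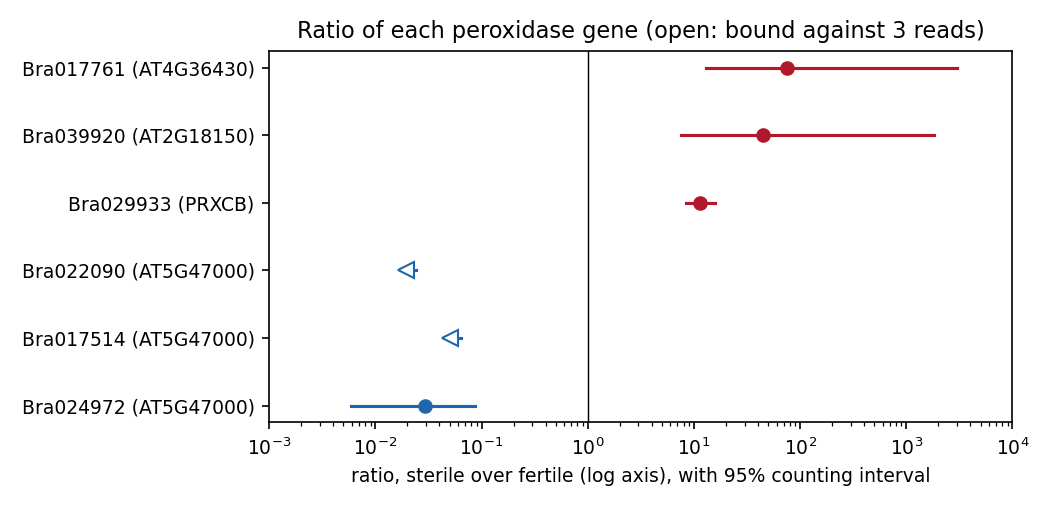
Ratio of sterile over fertile for each gene on a log axis, with its 95% counting interval. Filled points are ratios. Open triangles are ratios with 3 reads put in for the 2 genes with 0 reads in sterile buds. A line runs from each triangle to the end of the counting interval nearer to 1. The 3 genes in red lie at 11.5 and above, and the AT5G47000 copies in blue lie far to the left of 1.

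The summed level of the 6 genes was made up of different genes in the 2 libraries. The sum was 348 RPKM in sterile and 272 RPKM in fertile buds, a ratio of 1.28. In sterile buds 80.3% of this sum was PRXCB, against 8.93% in fertile buds. The AT5G47000 copies held 0.697% of it in sterile and 90.7% in fertile buds, and together they stood at 2.43 RPKM in sterile and 247 RPKM in fertile buds. The other 3 genes summed to 346 RPKM in sterile and 25.4 RPKM in fertile buds, a ratio of 13.6. These sums cover only genes that the authors had called different, so they say nothing of the total peroxidase mRNA of the buds.

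**Figure D3:**
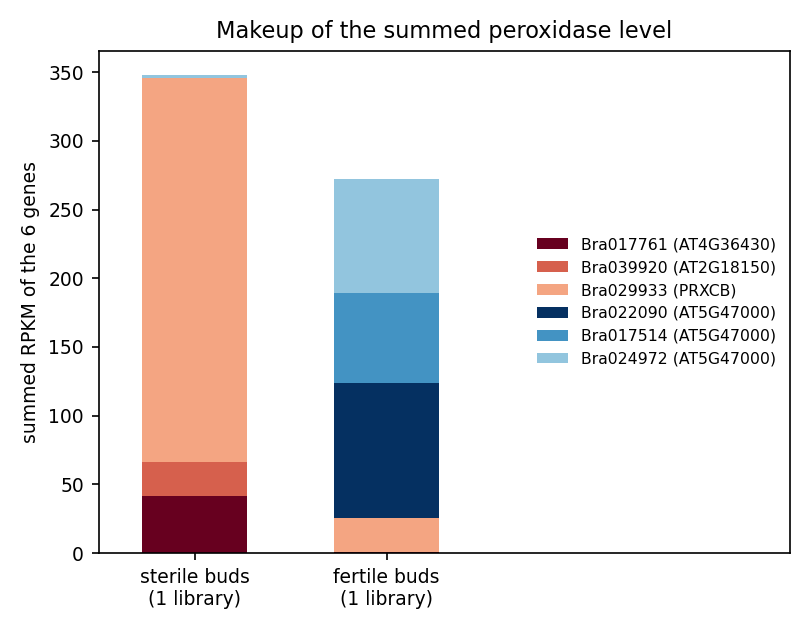
Summed RPKM of the 6 genes in the library of sterile buds (left) and of fertile buds (right), stacked by gene. PRXCB and the other genes in red shades make up nearly all of the 348 RPKM in sterile buds, and the AT5G47000 copies in blue shades make up 90.7% of the 272 RPKM in fertile buds.

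The other genes that the authors' deposited table listed for the same pathway were all lower in sterile buds. Phenylpropanoid biosynthesis held 9 genes there, and the 3 that were not peroxidases act before the peroxidase step or on side branches. The 9 genes were paired with 7 Arabidopsis genes, against 109 in the background of this pathway. Only genes called different were listed, so most of the pathway was not seen here. Bra003795 (CYP98A8), which in Arabidopsis hydroxylates phenolamides of the pollen coat, had 50.3 RPKM in sterile and 1200.4 RPKM in fertile buds and was 23.9-fold lower (interval 18.3 to 31.7). Bra010977 (AT1G24735), of the family of caffeoyl-CoA O-methyltransferases, had 7.12 RPKM from 8 reads in sterile and 292 RPKM from 378 reads in fertile buds and was 41.1-fold lower (interval 20.6 to 95.8). Bra037155 (UGT72E2), which in Arabidopsis attaches glucose to monolignols, had 0 reads in sterile and 39.3 RPKM from 95 reads in fertile buds. This is 27.5 times the level that 3 reads would give in sterile buds, and the counting interval of the fold began at 22.0. Hence the 3 higher genes among the 9 listed were peroxidases, and the 6 lower ones were the AT5G47000 copies and these enzymes. The authors' deposited table gave this pathway a corrected p of 0.805. Phenylalanine metabolism was listed there with the same 6 peroxidases and Bra010977, for 5 Arabidopsis genes against 90 in its background. The corrected p in the authors' deposited table was 1. The 6 genes also stood in 2 broad groups, where 59 of 65 other genes were lower in sterile buds for metabolic pathways and 21 of 25 for biosynthesis of secondary metabolites. In the authors' deposited table, 89.5% of all genes were lower in sterile buds, so these counts and the 3 of 3 above do not set the groups apart.

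Enzymes that make monolignols or use hydrogen peroxide could be followed only where the authors' tables named them, and a pathway gene was named only if it had been called different. Of 18 monolignol codes 1 was matched, Bra022700 (OMT1), a caffeate O-methyltransferase, which was 12.8-fold lower (interval 4.75 to 48.6), with 2.35 RPKM in sterile and 30.1 RPKM in fertile buds. Of 14 codes for catalases, ascorbate peroxidases, superoxide dismutases and NADPH oxidases 2 were matched. Bra025833 (CAT1), a catalase, which breaks down hydrogen peroxide, had 0 reads in sterile and 59.2 RPKM from 158 reads in fertile buds. This is 45.8 times the level of 3 reads in sterile buds, and the counting interval of the fold began at 36.8. Bra030706 (APX1), a cytosolic ascorbate peroxidase, which is not of class III, had 0.847 RPKM from 1 read in sterile and 51.6 RPKM from 70 reads in fertile buds. It was 60.9-fold lower (interval 10.6 to 2438). These 3 enzymes were lower in sterile buds, as were 211 of the 225 named genes that the authors had called, so their side is not particular to them. A search of symbols and descriptions for the word peroxidase or a matching symbol found no other gene. Descriptions of genes that also stood in the authors' pathway table were not read in this search.

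**Figure D4:**
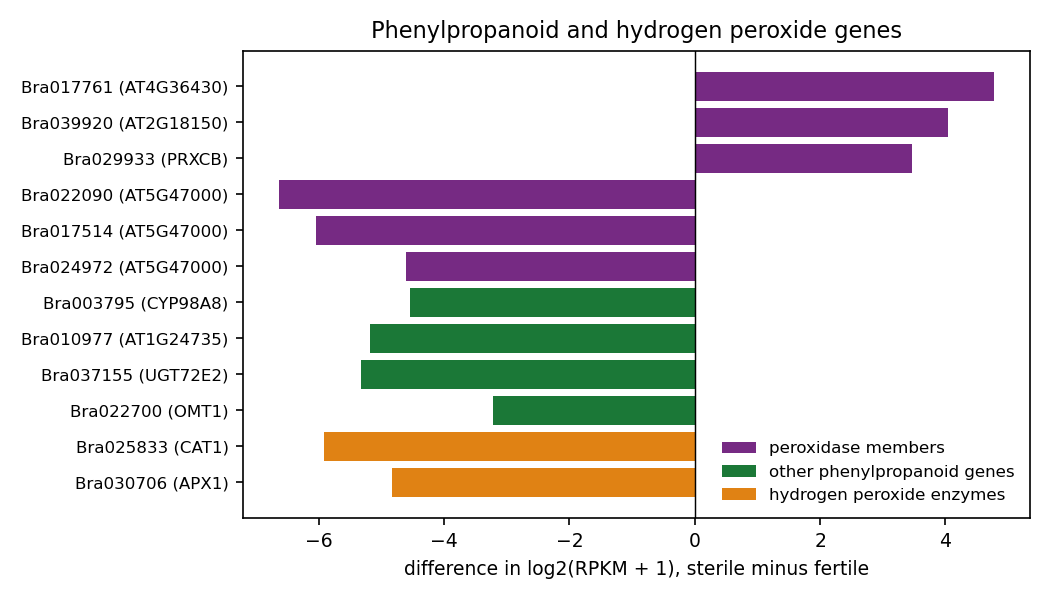
Difference in log2(RPKM + 1), sterile minus fertile, for the 6 peroxidase genes (purple), the other named phenylpropanoid genes (green) and the hydrogen peroxide enzymes (orange). The bars to the right of 0 are 3 peroxidase genes, between 3.47 and 4.78, and every other bar lies at -3.22 or below.

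In the authors' deposited table, 14 of the 225 genes with a name stood higher in sterile buds, against 10.5% of all genes listed there. The 3 peroxidases were among these 14 by the way they were chosen. The same 3 genes count in each of the 4 pathways that hold them, so shares of higher genes in these pathways are not independent of each other. Of 40 Arabidopsis codes paired with more than 1 listed gene, AT5G47000 among them, the copies went in 1 direction for 40. With 211 of the 225 named genes lower in sterile buds, this count shows nothing particular to copies.

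Genes with a like pattern were sought by the distance in log2(RPKM + 1) over the 2 libraries, which is a likeness over 2 points only. Within a distance of 0.25 there were 44 genes around Bra022090 and 49 around Bra017514, of which 44 and 47 were listed in the authors' deposited table. Both copies stood at 0 in sterile buds, so against other genes at 0 there the distance rests on the fertile library alone. The nearest named genes were Bra010024 (AT5G49600) for Bra022090, at a distance of 0.0047, and Bra019042 (AT4G27580) for Bra017514, at a distance of 0.014. For Bra024972 there were 4 genes within that distance, and the nearest named one was Bra001921 (SAHH2), an adenosylhomocysteine hydrolase of the methylation cycle, with 3.06 RPKM in sterile and 83.7 RPKM in fertile buds. Around each of the 3 members higher in sterile buds there were 0 genes within 0.25. The 1 read in fertile buds was worth 0.639 for Bra017761 and 0.631 for Bra039920 on the log2(RPKM + 1) scale. No gene at 0 in fertile buds could therefore lie within 0.25 of either. Counts of near genes thus depend in part on single reads, and those of different members are not compared. Unnamed genes lay just beyond this distance, the nearest at 0.306 for Bra017761, 0.260 for Bra039920 and 0.281 for PRXCB. For Bra017761 and Bra039920 the nearest named gene was the other of this pair, at a distance of 0.735, although several unnamed genes lay nearer to each. For PRXCB it was Bra008271 (OPR1), an oxophytodienoate reductase, at a distance of 0.809, with 159 RPKM in sterile and 23.2 RPKM in fertile buds.

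**Figure D5:**
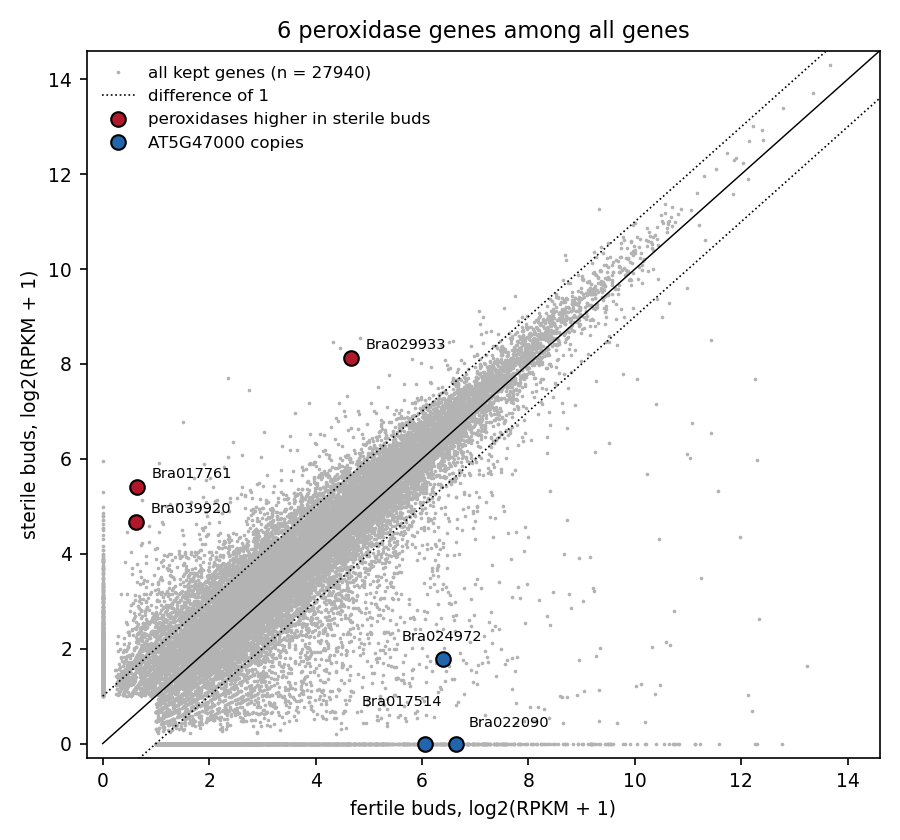
Level of 27940 genes in fertile buds (horizontal) and sterile buds (vertical), as log2(RPKM + 1), with the 6 peroxidase genes marked. The solid line is equality and the dotted lines a difference of 1. The genes in red lie above the cloud where few genes are found, and the AT5G47000 copies in blue lie among many genes at or near 0 in sterile buds.

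Those markers of a pollen and tapetum list that could be matched were lower in sterile buds alongside the AT5G47000 copies. Of 10 marker codes 5 were matched, by 10 genes, and all 10 were lower in sterile buds. This follows in part from the naming of called genes alone. Of the 225 named genes that the authors had called, 211 were lower as well, so the count is not particular to the markers. The codes for the tapetum genes A9 and MS1 were not matched. The summed level of the 10 matched genes was 50.8 RPKM in sterile and 5963 RPKM in fertile buds. The markers at 0 in sterile buds were 8, namely the 4 copies of the polygalacturonase PGA4, both copies of the pectin methylesterase PPME1, 1 copy of the pectate lyase AT59 and the oleosin gene AT5G07571. CYP98A8 held nearly all of the sum in sterile buds. In whole buds, fewer cells of a type and less RNA per cell cannot be told apart, and the part of these markers in the peroxidase values was not tested. Of 6 codes for other bud tissues 0 were matched, so the identity of the buds was not checked further.

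The scaling of the libraries did not turn the direction of any of the 6 genes, and it could not have done so. The sterile library was shifted by -0.202 and -0.233 on the log2 scale, while the smallest difference among the members was 3.47. Bra022090 and Bra017514, at 0 RPKM in sterile buds, cannot be moved by scaling at all. RPKM is relative to the library total, and the kept genes had a median difference of 0.17 on the log2(RPKM + 1) scale. Set against this median, the differences of the members higher in sterile buds are smaller by that amount. Over all genes 55.6% of those past the size threshold were lower in sterile buds, 65.8% after rescaling by the median ratio and 67.3% after rescaling by the trimmed mean of log ratios. The peroxidases higher in sterile buds still differed by 3.27 or more on the log2(RPKM + 1) scale after rescaling by the median ratio. After rescaling by the trimmed mean of log ratios they differed by 3.24 or more.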

How the data were processed

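The authors deposited expression as RPKM per gene for both libraries, per the file headers. The submitters' processing notes name TopHat. Its version, the build, the annotation and the counter are not given in the sources used here. Beside RPKM, the authors' deposited comparison table held log2 fold changes, fertile over sterile, and also, per the file headers, p-values and q-values. The test behind them is not stated. The authors' deposited pathway table gave counts of Arabidopsis genes, p-values and corrected p-values.

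Reads were recovered from the deposited values. For genes at 0 in 1 library the deposited fold was proportional to whole reads, within a tolerance of 0.0001. For the others, the smallest whole reads that gave both RPKM values were multiplied by the whole number that the deposited p-value required. A quantity built from the deposited p-value, the fold and the reads had nearly 1 value, from 0.120527 to 0.120531, in 478 genes with exact reads, and 522 of 522 other genes gave a whole multiple within 0.02. This multiple was 2 for Bra029933 and 1 for the other members above 0 in both libraries. For Bra003795 the deposited p-value was too small to use, so its reads are a minimum. Totals assume gene lengths in steps of 3 bp and triple with steps of 1 bp, while reads and ratios do not depend on this.

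Differences are sterile minus fertile. The pseudocount was 1, and genes with RPKM of at least 1 in either library were kept. The scripts were tested on simulated data. No p-value was computed, as there was 1 library a group. Analyses used Python 3.11.15, pandas 2.3.3, numpy 2.4.6, scipy 1.17.1 and matplotlib 3.10.9. The genes named were the members, the pathway and marker genes of lists that the tables name, and nearest genes. Members and lists were chosen with earlier results of these data known. Protein and promoter sequences were not used here.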

Additional observations from a re-analysis of the deposited data

How the results depend on the processing

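Directions of the 6 peroxidase genes were the same under all alternatives run. These were pseudocounts of 0.1 and 5, rescaling by the median ratio or by the trimmed mean of log ratios, and gene lengths in steps of 1 bp. Neither a pseudocount nor a length step can turn a direction. Rescaling cannot move Bra022090 and Bra017514, which had 0 reads in sterile buds. For the other members the shifts of -0.202 and -0.233 on the log2 scale were far smaller than their differences. This agreement was therefore fixed in advance. The counts of 3 higher and 3 lower members did not move. With a pseudocount of 5 the difference was -4.37 for Bra022090 and -3.81 for Bra017514, against -6.64 and -6.05 with 1, because a larger pseudocount shrinks differences against 0. Over all genes, the size threshold took 4042 as lower and 3224 as higher in sterile buds. These counts were 1935 and 987 with a pseudocount of 5, and 2426 and 2011 with RPKM of at least 5 in either library. The set with RPKM of at least 5 holds fewer genes than the main set, so a lower count there need not be a lower share. No paired analysis was possible because each group had 1 library. Depth limits Bra022090 and Bra017514, whose folds have no upper limit at 0 reads in sterile buds. It also limits Bra017761 and Bra039920, each with 1 read in fertile buds, and Bra024972, with 3 reads in sterile buds.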

Other observations

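Several genes whose identifiers lie within 3 of those of the AT5G47000 copies were also above 0 in fertile buds alone. This was noticed after the values were seen, and genome positions were not used here, so consecutive identifiers need not be neighbours on a chromosome. Of the 18 identifiers within 3 of a copy, 5 had 0 RPKM in sterile buds and at least 10 RPKM in fertile buds. Most of these were the run Bra024973, Bra024974 and Bra024975 beside Bra024972, and Bra022090 and Bra017514 had 1 each. Consecutive identifiers need not be independent of each other. Over all 41019 genes 635, or 1.55%, had this pattern. Bra017515, the next identifier after Bra017514, had 0 RPKM in sterile and 123 RPKM in fertile buds. Bra024974, 2 identifiers after Bra024972, had 0 RPKM in sterile and 166 RPKM in fertile buds. Beside the 3 members higher in sterile buds 1 of 18 identifiers had the pattern, and it preceded Bra039920, which went the other way. These genes carried no name in the tables used here, and the difference in these shares was not tested.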
